A study of Gallus gallus with 10 samples.

Results

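The genes described here are the chaperones, disulfide isomerases, degradation factors and stress sensors of the endoplasmic reticulum (ER), measured in the magnum of broiler breeder hens (Gallus gallus). The magnum is the oviduct segment that secretes egg white around the yolk. A list of 46 gene symbols defined the set, and 41 of them had a row among the 29558 genes of the deposited count table. DDIT3, TRIB3, PPP1R15A, SYVN1 and CDNF were not found there under these symbols and were not analysed. The symbols were divided by role into 13 folding chaperones and their helpers, 10 disulfide isomerases and oxidases, 12 degradation factors, and 11 stress sensors and transcription factors. The comparison was between 2 ages, 50 weeks, a time of declining lay, and 35 weeks, the peak of lay, with 5 separately numbered hens at each. Each library came from whole magnum tissue of 1 hen while an egg was in the magnum, and no treatment other than age is given. The labels name broiler breeders without giving a line. The sample titles also name the shell gland, a later oviduct segment, whereas the tissue label is the magnum. Whole tissue cannot show whether a lower value means fewer secretory cells or less RNA in each cell.

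Secreted proteins enter the ER unfolded, where chaperones such as HSPA5 (BiP) and HSP90B1 (GRP94) bind them, the lectins CALR and CANX hold glycoproteins, and protein disulfide isomerases form and reshuffle their disulfide bonds. Proteins that fail to fold are returned to the cytosol and degraded, a route known as ER-associated degradation. When unfolded proteins accumulate, the sensors ERN1 (IRE1), EIF2AK3 (PERK) and ATF6 start the unfolded protein response, which raises many of these same genes through the transcription factors XBP1, ATF4 and ATF6. Tubular gland cells of the magnum secrete ovalbumin, ovotransferrin and ovomucoid in bulk, several of them rich in disulfide bonds, and carry a large ER. These roles are known mostly from mammalian cells.

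Library totals lay between 188271 and 258195 counts. Levels are in CPM, which divides counts by the scaled library size. A gene with no count in a library could still lie at 11.7 to 16.0 CPM there by counting error alone. The share of 23 egg white genes was 2.98% at the lowest and 5.75% at the highest. Markers of the shell gland, isthmus and infundibulum, 7 of 11 rows of which had any count, lay between 60.4 and 113 CPM in sum at 50 weeks and between 5.34 and 76.9 CPM at 35 weeks, with CALB1, SPP1 and SLC26A9 at 0. Of genes that nearly all cells use, GAPDH and RPL3 each had 1 to 7 counts per library and EEF1A1 had 29 to 84. Why these genes had so few counts was not tested, and it limits how far counts here can be read as RNA levels. The library of hen 4 at 50 weeks and those of hens 1 and 2 at 35 weeks stood apart from the other 7. They had 74, 93 and 76 counts of ACTB, a cytoplasmic actin gene, against 11 to 22 in the others, and 226, 97 and 124 counts of the collagen gene COL6A2, against 1 to 38. Both genes were picked after their values were seen.

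The ER genes as a whole were lower at 50 weeks in most hens, with a mean sum 0.792 times that at 35 weeks, where the egg white sum was 0.708 times. Their summed level was 2851, 2484, 2410.1, 2605 and 2219 CPM in hens 1 to 5 at 50 weeks, against 3624, 3694, 2898, 2891 and 2761 CPM in hens 1 to 5 at 35 weeks. The ages overlapped through 1 hen, since hen 1 at 50 weeks lay above hen 5 at 35 weeks. The means were 2514 ± 235 CPM at 50 weeks, against 3174 ± 447 CPM at 35 weeks (SD, n = 5 each), a difference of −660 CPM. No test was made of this sum, because the genes were chosen with earlier results of these data known. Leaving out the 3 libraries that stood apart brought the difference to −359 CPM. Without PDIA6 it was −401 CPM over all hens. The 41 genes held 0.225% to 0.284% of a library's counts at 50 weeks and 0.275% to 0.360% at 35 weeks, in all 6197 counts over all 10 libraries, of which PDIA6 alone held 22.7%.

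By role, the means were lower at 50 weeks in each of the 4 groups. The sum of the folding chaperones was 1118 ± 92.9 CPM in the hens of 50 weeks, against 1363 ± 228 CPM in those of 35 weeks, and that of the disulfide isomerases and oxidases 952 ± 246 against 1273 ± 214 CPM. Degradation factors came to 88.2 ± 41.6 CPM at 50 weeks, against 114 ± 24.1 CPM at 35 weeks, and sensors and transcription factors to 355 ± 38.3 against 424 ± 61.4 CPM (SD, n = 5 each). The ages overlapped in all 4 groups. PDIA6 alone held 1409 of the 2416 counts of the disulfide isomerases and oxidases. Its level was 521 ± 241 CPM at 50 weeks, against 779.8 ± 194 CPM at 35 weeks. Without the 3 libraries that stood apart the difference fell to −79.0 CPM for folding chaperones, where it was −245 CPM over all hens, and to −8.39 CPM for degradation factors, where it was −25.6 CPM. It was −230 CPM for disulfide isomerases and oxidases, where it was −320.4 CPM, and −41.5 CPM for sensors and transcription factors, where it was −68.4 CPM. Leaving out 1 hen moved the degradation difference between −40.3 CPM (without hen 1 at 50 weeks) and −12.5 CPM (without hen 2 at 50 weeks).

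**Figure D1:**
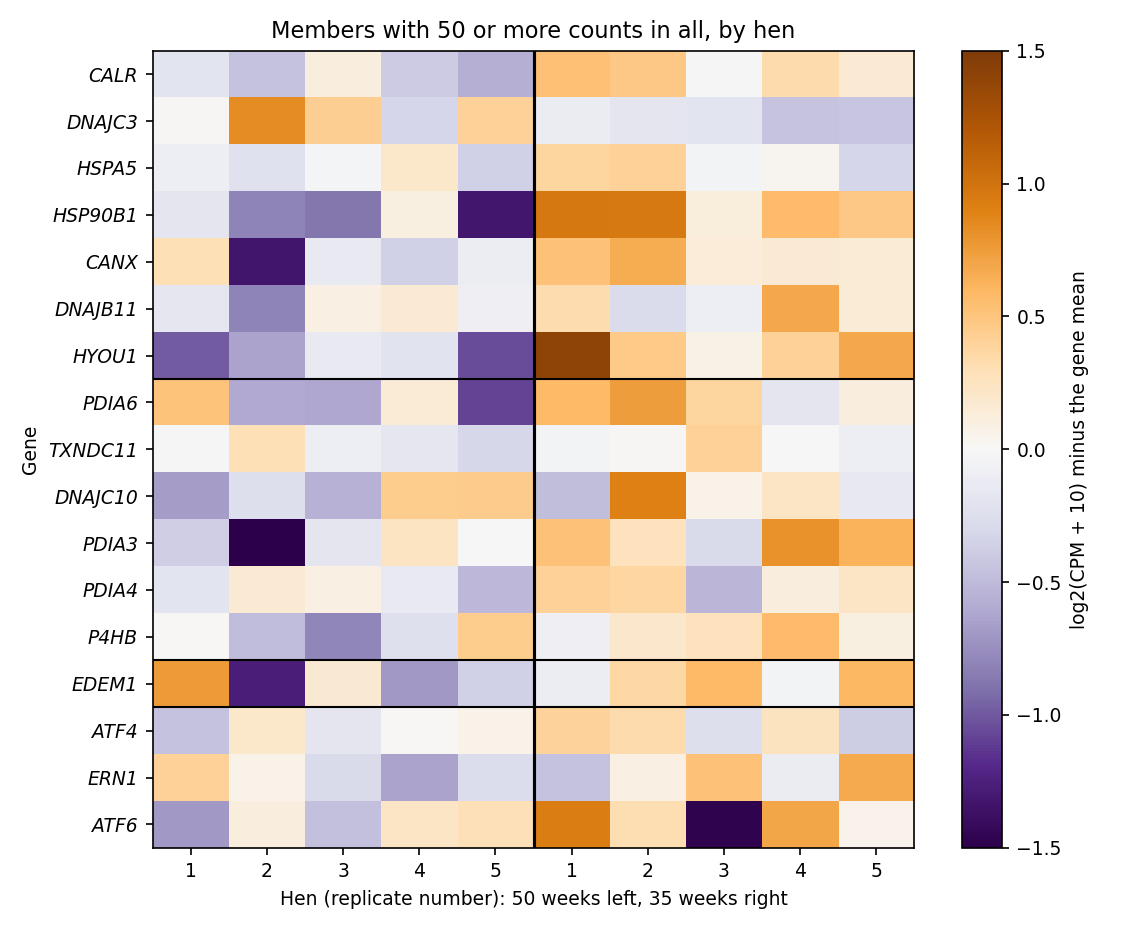
Level of the 17 genes with 50 or more counts over the 10 libraries, as log2(CPM + 10) minus the gene's mean, with 1 column per hen and 50 weeks to the left of 35 weeks. Black lines divide folding chaperones, disulfide isomerases and oxidases, degradation and sensors, from top to bottom. On this scale the HSP90B1 row is lower in every hen at 50 weeks than in any at 35 weeks, although its raw counts overlap between the ages. The HYOU1 row is too, but it rests on 1 to 15 counts per hen, and its ages meet at 4 counts before scaling. DNAJC3 runs the other way.

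Of the 41 genes, 10 had enough counts to be tested with edgeR's quasi-likelihood test among 1773 genes, and these held 84.1% of the counts of the set. The filter asked for 45.26 CPM or more in 5 libraries, which HSP90B1 reached in 4 hens at 50 weeks and 5 at 35 weeks, ATF6 and DNAJC10 in 3 and 4, and the other 7 in all 10 hens. None passed an adjusted p under 0.05, where 0.0564% of all tested genes (1 gene) did. At an unadjusted p under 0.05 there were 3 members, with 10.5% of all tested genes. HSP90B1 and CALR were lower, as were 6.03% of all tested genes, and DNAJC3 was higher, as were 4.46%. Of the 10 members, 9 had a negative log2 fold change, and of all tested genes 49.2% did. The median log2 fold change was −0.30 over these 10 genes and 0.0060 over all tested genes. DESeq2, limma with sample weights, and edgeR with a looser or no filter on low counts each called 1 member, HSP90B1, and these fits called 1.82%, 0.451%, 0.506% and 0.228% of the genes they tested. Without a filter, 31 of all 41 members had a negative log2 fold change (52.6% of all genes) and 6 an unadjusted p under 0.05 in edgeR (5.86% of all genes), namely HSP90B1, CALR, PDIA6 and HYOU1, which were lower, and DNAJC3 and TXNDC5, which were higher. With the 3 libraries that stood apart left out, edgeR called 2.3% of all tested genes and no member. In that fit 2 members had an unadjusted p under 0.05, as did 272 of all 1828 tested genes.

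**Figure D2:**
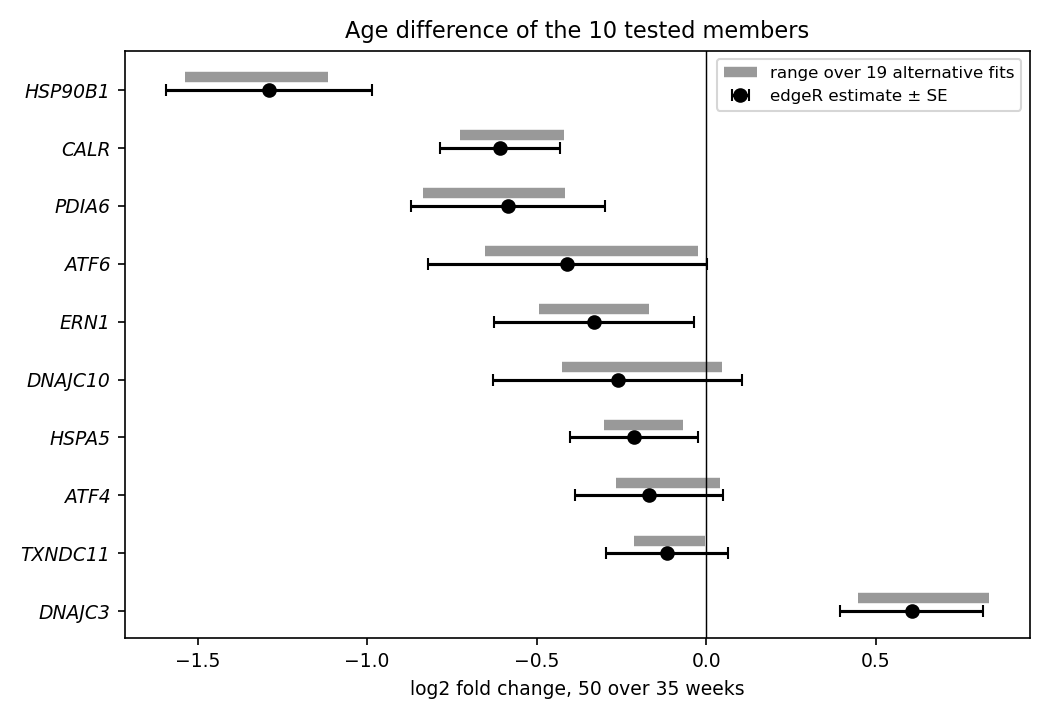
Log2 fold change of 50 over 35 weeks for the 10 tested genes, with the edgeR estimate and its SE in black and the range over 19 alternative fits as a grey bar. The bars of DNAJC10 and ATF4 cross 0, and the other 8 genes keep their sign in all 19.

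HSP90B1, the ER member of the HSP90 family, showed the largest difference with age among the tested members. It lies on chromosome 1 at 54759583 to 54769432 (RefSeq annotation of GRCg7b), with no annotated gene within 1 kb. Its level was 88.2, 53.9, 50.6, 109 and 34.5 CPM in hens 1 to 5 at 50 weeks, against 208, 205, 112, 155 and 144 CPM in hens 1 to 5 at 35 weeks. In CPM every hen at 50 weeks lay below every hen at 35 weeks, although the gap between hen 4 at 50 weeks and hen 3 at 35 weeks was small. Before scaling, HSP90B1 had 18, 12, 12, 28 and 8 counts at 50 weeks, against 46, 47, 21, 32 and 27 at 35 weeks. The ages overlapped in these raw counts, since hen 4 at 50 weeks lay above hens 3 and 5 at 35 weeks. HSP90B1 was the only one of the 10 tested members whose ages did not overlap in CPM. That held for 1.64% of all tested genes, and for 1.13% with 50 weeks lower. The means were 67.2 ± 30.4 CPM at 50 weeks, against 165 ± 41.5 CPM at 35 weeks (SD, n = 5 each), or −1.29 ± 0.30 (SE) as a log2 fold change (edgeR, adjusted p = 0.170). It passed in 5 of 19 alternative fits, with adjusted p between 0.00616 and 0.362 over all of them. One of the 5 left out hen 4 at 50 weeks, the highest of its age (log2 fold change −1.54, adjusted p = 0.0317 in edgeR), a fit that called 0.654% of all tested genes. Without the 3 libraries that stood apart the log2 fold change was −1.27 (adjusted p = 0.0543 in edgeR). In the authors' deposited table, whose fold changes run 35 over 50 weeks, HSP90B1 has a log2 fold change of 1.29 with a standard error of 0.35 and an adjusted p of 0.0567. That comparison was of the same hens, so it is not separate evidence. DESeq2 as run here gave −1.29 ± 0.34 (SE) for 50 over 35 weeks, with an adjusted p of 0.0274.

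CALR, the calcium-binding lectin calreticulin, lies on chromosome 30 at 644470 to 647759. Its level was 328, 274, 409, 284 and 250.4 CPM in hens 1 to 5 at 50 weeks, against 552, 529, 372, 479 and 422 CPM in hens 1 to 5 at 35 weeks. All but 1 of the 5 hens at 50 weeks lay below all hens at 35 weeks, and hen 3 lay within their range. The means were 309 ± 62.4 CPM at 50 weeks, against 471 ± 74.4 CPM at 35 weeks, or −0.61 ± 0.18 (SE) as a log2 fold change (edgeR, adjusted p = 0.249). Without the 3 libraries that stood apart it was −0.42 (adjusted p = 0.350 in edgeR).

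HSPA5, the central ER chaperone of the HSP70 family and sensor-binding protein of the unfolded protein response, differed little. It had 245, 225, 257, 303 and 203 CPM in hens 1 to 5 at 50 weeks, against 344, 349.8, 255, 271 and 208 CPM in hens 1 to 5 at 35 weeks. The ages overlapped over most of their range, and the high values at 35 weeks were those of hens 1 and 2. The means were 247 ± 37.8 CPM at 50 weeks, against 286 ± 60.5 CPM at 35 weeks, or −0.21 ± 0.19 (SE) as a log2 fold change (edgeR, adjusted p = 0.771). It was −0.068 without the 3 libraries that stood apart, and between −0.30 (without hen 5 at 35 weeks) and −0.13 (without hen 2 at 35 weeks) on leaving out 1 hen.

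DNAJC3 (p58IPK), a co-chaperone of HSPA5 that in mammals also restrains the kinase PERK, went in the opposite direction. Its level was 309, 552, 413, 241 and 406 CPM in hens 1 to 5 at 50 weeks, against 280.5, 267, 266, 222 and 224 CPM in hens 1 to 5 at 35 weeks. Of the hens at 50 weeks 4 lay above all hens at 35 weeks, and hen 4 at 50 weeks lay among them. The means were 384 ± 118 CPM at 50 weeks, against 252 ± 26.8 CPM at 35 weeks, or 0.61 ± 0.21 (SE) as a log2 fold change (edgeR, adjusted p = 0.311). Without the 3 libraries that stood apart it was 0.83 (adjusted p = 0.0617 in edgeR), the highest value over the 19 alternative fits. DNAJC3 lies on chromosome 1 at 145942208 to 145978018, where it overlaps UGGT2, a glycoprotein folding sensor, with 124 counts against 701 for DNAJC3.

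**Figure D3:**
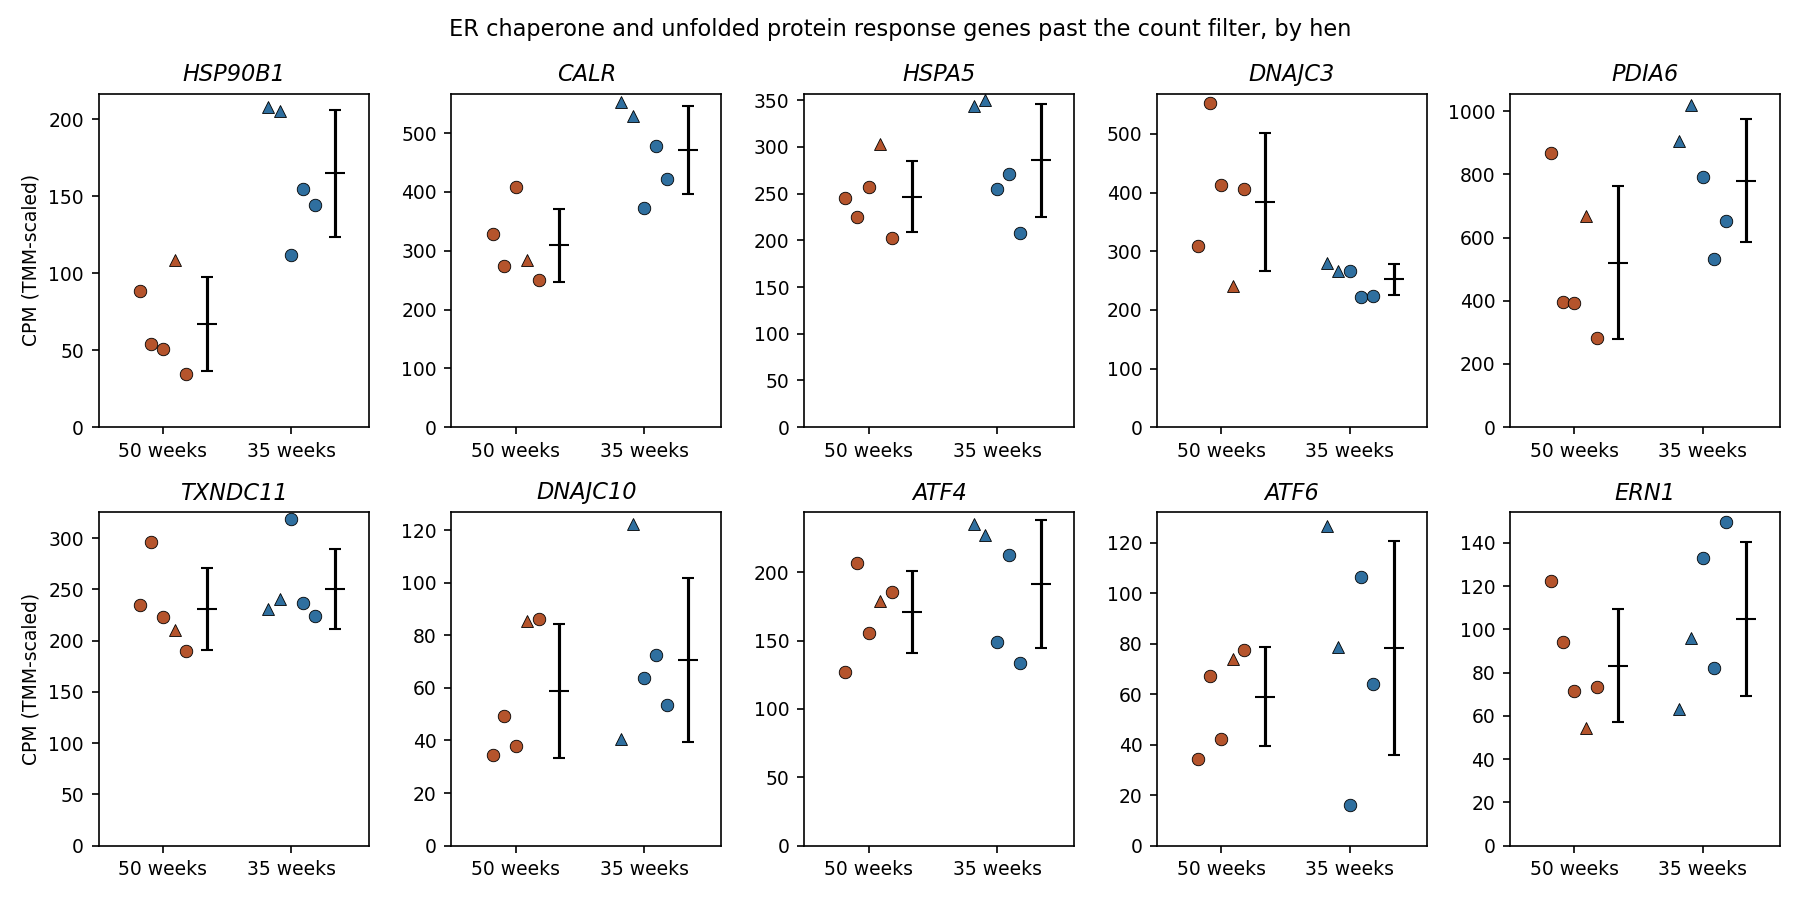
CPM of the 10 tested genes in each hen, with 50 weeks to the left of 35 weeks, and the mean and SD of 5 hens beside the points. Triangles mark the 3 libraries that stood apart (hen 4 at 50 weeks, hens 1 and 2 at 35 weeks). The ages do not overlap for HSP90B1, and they overlap through 1 hen at 50 weeks for CALR and for DNAJC3.

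The other 8 folding chaperones in the table had too few counts for the test, with 129 counts in all at 50 weeks and 199 at 35 weeks. HYOU1 (GRP170), an HSP70-like chaperone and nucleotide exchange factor of HSPA5, had 1, 2, 4, 4 and 1 counts in hens 1 to 5 at 50 weeks, against 15, 7, 4, 6 and 7 counts at 35 weeks. The highest count at 50 weeks equals the lowest at 35 weeks, so the ages meet at 4 counts. Fitted without a filter on low counts, HYOU1 stood at −1.77 ± 0.55 (SE) as a log2 fold change (edgeR, adjusted p = 0.231). The authors' deposited table gives it a log2 fold change of 1.85 for 35 over 50 weeks, with a standard error of 0.65 and an adjusted p of 0.239. CRELD2, an ER-resident protein induced by ER stress in mammals, had 2, 4, 2, 4 and 4 counts at 50 weeks, against 6, 6, 7, 6 and 4 counts at 35 weeks. Its ages also meet at 4 counts (log2 fold change −0.96 ± 0.55, SE; adjusted p = 0.581 in edgeR without a filter).

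CANX, the membrane-bound lectin calnexin, had 35 counts in all at 50 weeks and 53 at 35 weeks. By hen these were 10, 2, 8, 7 and 8 counts at 50 weeks, against 13, 15, 8, 9 and 8 at 35 weeks. In CPM 4 of the hens at 50 weeks lay below all hens at 35 weeks. The log2 fold change of CANX was −0.70 ± 0.43 (SE; adjusted p = 0.581 in edgeR without a filter). DNAJB11, a co-chaperone of HSPA5, had 24 counts at 50 weeks and 29 at 35 weeks. MANF, a small ER protein that binds HSPA5, had 23 counts at 50 weeks and 26 at 35 weeks, and UGGT1, which senses misfolded glycoproteins, had 15 and 19. SDF2L1 and DNAJB9, both partners of HSPA5, had 5 and 3 counts over all 10 libraries. None of these 6 genes had an unadjusted p under 0.05 in edgeR without a filter, and their counts were few.

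PDIA6, a protein disulfide isomerase that partners HSPA5, had the most counts of the set. Counts are not corrected for transcript length, so they do not rank genes by level. PDIA6 lies on chromosome 3 at 96619929 to 96635936, where it overlaps the annotated gene LOC107051690, which was not matched to a counted gene. The level of PDIA6 was 867, 395, 392, 669 and 281 CPM in hens 1 to 5 at 50 weeks, against 905, 1019, 792, 532 and 652 CPM in hens 1 to 5 at 35 weeks. At 50 weeks 3 hens lay below all hens at 35 weeks, while hens 1 and 4 lay within their range. The means were 521 ± 241 CPM at 50 weeks, against 779.8 ± 194 CPM at 35 weeks, or −0.59 ± 0.29 (SE) as a log2 fold change (edgeR, adjusted p = 0.494).

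TXNDC11, a thioredoxin-domain protein of the ER membrane, had 235, 296, 223, 210.0 and 190.0 CPM in hens 1 to 5 at 50 weeks, against 231, 240.5, 319, 237 and 224 CPM at 35 weeks. The ages overlapped, and hen 3 at 35 weeks was the highest of all. As a log2 fold change this came to −0.12 ± 0.18 (SE; edgeR, adjusted p = 0.892). It was −0.0046 without hen 3 at 35 weeks and −0.21 without hen 2 at 50 weeks. DNAJC10 (ERdj5), which reduces disulfide bonds of proteins on their way to degradation, had 34.3, 49.4, 37.9, 85.6 and 86.4 CPM at 50 weeks, against 40.7, 122, 63.8, 72.5 and 53.4 CPM at 35 weeks. The ages overlapped widely, and the highest value was that of hen 2 at 35 weeks. DNAJC10 stood at −0.26 ± 0.37 (SE) as a log2 fold change (edgeR, adjusted p = 0.867), which turned to 0.047 without that hen. It lies on chromosome 7 at 13491213 to 13512054.

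Among the 7 members of this group below the filter, the count was 163 at 50 weeks and 179 at 35 weeks. PDIA3 (ERp57), the isomerase that works with CALR and CANX on glycoproteins, had 5, 1, 7, 11 and 8 counts at 50 weeks, against 12, 10, 5, 14 and 11 counts at 35 weeks. Without a filter the fitted log2 fold change was −0.84 ± 0.44 (SE; adjusted p = 0.581 in edgeR). TXNDC5 (ERp46), an isomerase, ran the other way with 5, 12, 7, 4 and 3 counts at 50 weeks, against 3, 5, 1, 1 and 2 counts at 35 weeks. Its ages overlapped between 3 and 5 counts, with a fitted log2 value of 1.23 ± 0.57 (SE; 50 over 35 weeks, adjusted p = 0.581 in edgeR without a filter). P4HB, the archetypal protein disulfide isomerase, had 29 counts at 50 weeks and 37 at 35 weeks, PDIA4 had 37 and 42, and PDIA5 had 20 and 27. The oxidases that recharge the isomerases were barely counted, with 5 counts of ERO1A and 18 of ERO1B over all 10 libraries.

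None of the 11 degradation factors in the table passed the filter, and together they had 100 counts at 50 weeks and 118 at 35 weeks. EDEM1, a lectin that hands misfolded glycoproteins to degradation, had 10, 1, 7, 3 and 4 counts in hens 1 to 5 at 50 weeks, against 5, 8, 8, 5 and 8 counts at 35 weeks. Its range at 50 weeks enclosed that at 35 weeks. SELENOS, a selenoprotein of the retrotranslocation complex, had 12 counts at 50 weeks and 20 at 35 weeks. The derlins, membrane proteins of the same complex, had 11 counts at 50 weeks and 18 at 35 weeks for DERL1, and 12 and 11 for DERL2. SEL1L, EDEM3, DERL3, HERPUD1, HERPUD2, EDEM2 and SELENOK had under 20 counts each, and none of the 11 had an unadjusted p under 0.05 without a filter in edgeR.

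Of the 3 sensors, ERN1 and ATF6 were tested. ERN1, the kinase and endonuclease that splices XBP1, had 122, 94.3, 71.6, 54.4 and 73.4 CPM in hens 1 to 5 at 50 weeks, against 63.3, 96.2, 133, 82.2 and 149.5 CPM at 35 weeks. The ages overlapped over most of their range, and the estimate was −0.33 ± 0.29 (SE) as a log2 fold change (edgeR, adjusted p = 0.771). Leaving out 1 hen moved it between −0.49 (without hen 1 at 50 weeks) and −0.17 (without hen 5 at 35 weeks). ERN1 lies on chromosome 18 at 7388504 to 7422209, where it overlaps LOC121107129 and LOC107052236, which were not matched to counted genes. ATF6, a membrane-bound transcription factor released by cleavage, had 34.3, 67.4, 42.1, 73.9 and 77.7 CPM at 50 weeks, against 127, 78.7, 16.0, 106 and 64.1 CPM at 35 weeks. The range at 35 weeks enclosed that at 50 weeks, and the estimate was −0.41 ± 0.41 (SE) as a log2 fold change (edgeR, adjusted p = 0.807). Leaving out 1 hen moved it between −0.65 (without hen 3 at 35 weeks) and −0.16 (without hen 1 at 35 weeks), and it was −0.025 in limma. EIF2AK3 had 6 counts in all at 50 weeks and 10 at 35 weeks.

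ATF4, the transcription factor made when the PERK branch is active, had 127, 207, 156, 179 and 186 CPM in hens 1 to 5 at 50 weeks, against 235, 227, 149, 213 and 134 CPM at 35 weeks. The ages overlapped, and hens 1 and 2 at 35 weeks were the highest. ATF4 lies on chromosome 1 at 50638488 to 50641444, with LOC107053686, not matched to a counted gene, 469 bases away. As a log2 fold change the age difference came to −0.17 ± 0.22 (SE; edgeR, adjusted p = 0.852) and turned to 0.040 without the 3 libraries that stood apart. It lay between −0.27 (without hen 5 at 35 weeks) and −0.070 (without hen 1 at 50 weeks) on leaving out 1 hen. XBP1 had 3, 1, 5, 6 and 6 counts at 50 weeks, against 5, 5, 2, 5 and 7 counts at 35 weeks, and the table does not separate its spliced form. CHAC1, a target of ATF4 that degrades glutathione, had 6 counts at 50 weeks, all in hens 4 and 5, and 1 at 35 weeks. CREB3L1 and CREB3L2, related membrane-bound transcription factors, had 6 and 10 counts at 50 weeks and 10 and 6 at 35 weeks. No age difference was detectable with so few counts in the genes of this group below the filter.

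Other genes of these pathways showed no difference past the test. Of 38 further ER folding and disulfide genes in the table, 10 were tested, 5 with a positive and 5 with a negative log2 fold change, and none had an unadjusted p under 0.05 in edgeR. The 3 with the smallest p were GPX8, a peroxidase of the ER (86.4 ± 82.1 CPM at 50 weeks and 42.1 ± 14.6 CPM at 35 weeks), EMC3, a subunit of a membrane protein insertase (148 ± 34.8 and 110.4 ± 27.3 CPM), and UGGT2 (47.7 ± 23.1 and 66.7 ± 7.86 CPM). Of 33 further degradation genes only RNF139, a ubiquitin ligase, was tested (161 ± 36.7 CPM at 50 weeks and 131 ± 38.2 CPM at 35 weeks). Of 33 further regulators and targets of the unfolded protein response 6 were tested, again split evenly by sign and with none at an unadjusted p under 0.05. The 3 with the smallest p were EIF2S1, the translation factor that PERK phosphorylates (35.3 ± 22.2 CPM at 50 weeks and 66.8 ± 24.4 CPM at 35 weeks), SERP1, a translocon-associated protein (61.5 ± 27.7 and 89.6 ± 26.6 CPM), and PSPH, an enzyme of serine synthesis (232 ± 36.9 and 204 ± 44.9 CPM).

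The sum of the ER genes followed the sum of the egg white genes from hen to hen, as long as counts of neighbouring genes were left out. Egg white genes summed to 43504, 29209, 34280.3, 32047 and 33929 CPM in hens 1 to 5 at 50 weeks, against 58133, 51287, 46535, 44853 and 43582 CPM in hens 1 to 5 at 35 weeks. The 2 ages did not overlap in this sum, though hen 1 at 50 weeks lay close to hen 5 at 35 weeks. Ovalbumin (OVAL) had a log2 fold change of −0.37, ovotransferrin (TF) of −0.83 and ovomucoid (SPINK7) of −0.78, none past an adjusted p of 0.05 in edgeR. Hen 1 at 50 weeks also had the highest ER sum of its age, and hens 1 and 2 at 35 weeks had the highest 2 values of both sums. Over the 10 hens Pearson's r was 0.898 and Spearman's rho 0.879, and after each age's mean was subtracted they were 0.776 and 0.624. These are descriptions of 10 libraries, and both sums share each library's depth and scaling. With hen 2 at 50 weeks and hen 1 at 35 weeks left out, the 2 farthest from the median egg white sum, r was 0.870 and 0.767 after the age means were subtracted. Without the 3 libraries that stood apart r was 0.875 over 7 hens, and 0.733 after the age means were subtracted. The relation was weaker without PDIA6, the member with the most counts. Pearson's r was then 0.820, and after the age means were subtracted r was 0.576 and rho 0.491. With the counts of genes that overlap members or lie within 1 kb added to the ER sum, r was 0.475, and −0.292 after the age means were subtracted. RABEPK, a neighbour of HSPA5, held 18708 of the 25050 added counts, where all members together held 6197. Its own r with the egg white sum was 0.420, and −0.351 after the age means were subtracted.

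**Figure D4:**
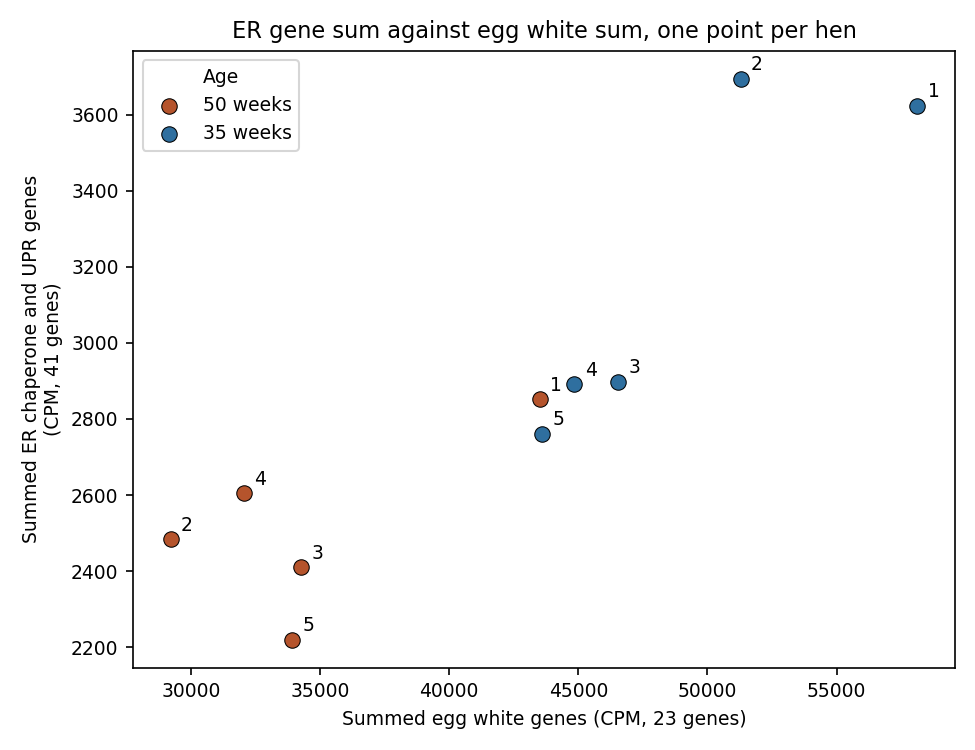
Summed CPM of the 41 ER genes (vertical) against the summed CPM of 23 egg white genes (horizontal), with 1 point per hen, numbered by replicate and coloured by age. Neither axis starts at 0. The hens at 50 weeks lie to the lower left, except hen 1, which lies beside hens 3, 4 and 5 at 35 weeks, and hens 1 and 2 at 35 weeks lie at the upper right.

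The ratio of the sums differed less between the ages than either sum. A hen had 15.3, 11.8, 14.2, 12.3 and 15.3 egg white counts per ER gene count at 50 weeks, against 16.0, 13.9, 16.1, 15.5 and 15.8 at 35 weeks. The means were 13.8 ± 1.65 at 50 weeks and 15.5 ± 0.907 at 35 weeks (SD, n = 5 each), and the ages overlapped. The ER genes had 582, 553, 572, 670.0 and 514 raw counts at 50 weeks, against 801, 845, 545, 598 and 517 at 35 weeks. Hens 2 and 1 at 35 weeks were the highest, as in CPM, whereas hens 3 and 5 at 35 weeks ranked 8 and 9 of 10.

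Members differed in how closely they followed the egg white sum. Pearson's r with the egg white sum was 0.864 for HSP90B1, 0.850 for CALR, 0.789 for PDIA6 and 0.607 for HSPA5 over the 10 hens. Of the 1758 tested genes outside the egg white list, 4 (0.228%) had an r as high as that of HSP90B1 or higher, itself included, and 9 (0.512%) as high as that of CALR. For PDIA6, HSPA5 and DNAJC3 the shares were 1.19%, 7.11% and 93.7%, and the remaining members were not ranked. The ages did not overlap in the egg white sum, so these ranks include the difference with age. No rank was made with age means subtracted. The median r, which also includes the difference with age, was 0.318 over the 10 tested members and −0.000046 over those 1758 genes. TXNDC11 (0.088), DNAJC10 (0.054), ERN1 (0.201), ATF4 (0.293) and ATF6 (0.343) followed the egg white sum weakly, and DNAJC3 ran against it (−0.613). After the age means were subtracted, r was 0.703 for PDIA6, 0.578 for HSP90B1, 0.572 for CALR, 0.534 for HSPA5, 0.165 for ATF6 and 0.116 for ATF4. It was then below 0 for DNAJC3 (−0.182), ERN1 (−0.171), TXNDC11 (−0.227) and DNAJC10 (−0.232). The median over those 1758 genes was then 0.0022. By role, r over the 10 hens was 0.752 for folding chaperones, 0.790 for disulfide isomerases and oxidases, 0.754 for degradation factors and 0.565 for sensors and transcription factors. With age means subtracted it was 0.545, 0.633, 0.822 and 0.165 in the same order. The values for degradation factors rest on only 8 to 30 counts per hen.

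The tested members did not move as 1 block. Of their 45 pairs, 28 had a positive r over the 10 hens on log2 CPM, with a median r of 0.127. With age means subtracted 24 were positive and the median was 0.029. HSP90B1 ran with PDIA6 (r = 0.849), CALR (0.805) and HSPA5 (0.702), and ATF4 ran with ATF6 (0.739). DNAJC3 ran against HSP90B1 (−0.790) and PDIA6 (−0.646), and ERN1 ran against ATF4 (−0.598) and ATF6 (−0.572). After that subtraction, r was 0.814 for HSP90B1 with PDIA6, 0.741 with HSPA5 and 0.428 with CALR, and −0.558 with DNAJC3. It was 0.732 for ATF4 with ATF6, −0.753 for ERN1 with ATF4, −0.676 for ERN1 with ATF6 and −0.429 for DNAJC3 with PDIA6. Of the 3 libraries that stood apart, hen 1 or 2 was the highest at 35 weeks for 8 of the 10 tested members. At 50 weeks hen 4 was the highest for 2 of the 10, HSP90B1 and HSPA5. No such count was made over all tested genes, so these numbers cannot be read as particular to the members. The part of these libraries in the relations among members was not tested. The 5 named genes whose log2 CPM was most like that of HSP90B1 over the 10 libraries were SNN (r = 0.911), RPS6KB1 (0.900), TCTE1 (0.883), KARS (0.857) and TUBD1 (0.857).

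Markers of other cell types were also counted, from 17 counts over the 10 libraries for erythrocytes and thrombocytes to 1776 for endothelium. B and plasma cell markers, cells known for a large ER, were at 82.0 ± 22.5 CPM in sum at 50 weeks, against 59.3 ± 19.2 CPM at 35 weeks, with 79.6% of counts from JCHAIN, and with PAX5, POU2AF1, TNFRSF13B and CD38 at 0. Fibroblast markers ranged from 38.9 to 906 CPM at 50 weeks and from 37.2 to 564 CPM at 35 weeks, with 88.5% of their counts from COL6A2. Smooth muscle markers ranged from 135 to 198 CPM at 50 weeks and from 117 to 353 CPM at 35 weeks, and ciliated epithelium markers from 142 to 229 and from 109 to 275.5 CPM. Endothelial markers, 92.6% of them VWF, ranged from 568 to 985 CPM at 50 weeks and from 634 to 1036 CPM at 35 weeks. T and NK cell markers ranged from 147 to 486 CPM at 50 weeks and from 163 to 319 CPM at 35 weeks, with CD3D, CD4 and ZAP70 among those at 0. Macrophage and dendritic cell markers ranged from 46.3 to 82.0 and from 35.0 to 58.8 CPM, with 5 of 8 at 0, and those of erythrocytes and thrombocytes stayed under 40 CPM. The part of these cells in the results was not tested.

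Several members lie beside genes with far more counts than their own. No source used here states how strand was treated in counting, so RNA of a member and of a close neighbour cannot be told apart with certainty. Whether counts come from the gene's own strand was not tested for any member, including those without a neighbour, such as HSP90B1. Of the 40 members placed in the RefSeq annotation of GRCg7b, 22 had a counted gene overlapping them or within 1 kb, and in 8 of 27 such pairs the neighbour had more counts. HSPA5, on chromosome 17 at 10199762 to 10203834, had 585 counts over the 10 libraries, and RABEPK, 934 bases away, had 18708. The mean of RABEPK was 6444 ± 2749 CPM at 50 weeks, against 10939.9 ± 2449 CPM at 35 weeks, or −0.76 ± 0.25 (SE) as a log2 fold change (edgeR, adjusted p = 0.279). Its level followed that of HSPA5 weakly (r = 0.318) and that of HSP90B1 closely (r = 0.810). TXNDC11, on chromosome 14 at 899687 to 920615, had 522 counts and SNN, 260 bases away, had 1937. The mean of SNN was 737 ± 261 CPM at 50 weeks, against 1038 ± 104 CPM at 35 weeks, or −0.49 ± 0.20 (SE) as a log2 fold change (edgeR, adjusted p = 0.393). SNN is the gene named above as most like HSP90B1.

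Among genes with few counts the same held for SDF2L1 (5 counts) beside YDJC (2783), DERL2 (23) beside MIS12 (517), XBP1 (45) beside CCDC117 (309) and TXNDC5 (43), which overlaps BMP6 (211). HSP90B1, PDIA3, PDIA4, PDIA5, P4HB, ERO1B, EDEM1, SEL1L, DERL3, CREB3L1 and CREB3L2 had no annotated neighbour within 1 kb. When the counted neighbours were added to the members, the mean sum was 11822 CPM at 50 weeks, against 17021 CPM at 35 weeks.

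**Figure D5:**
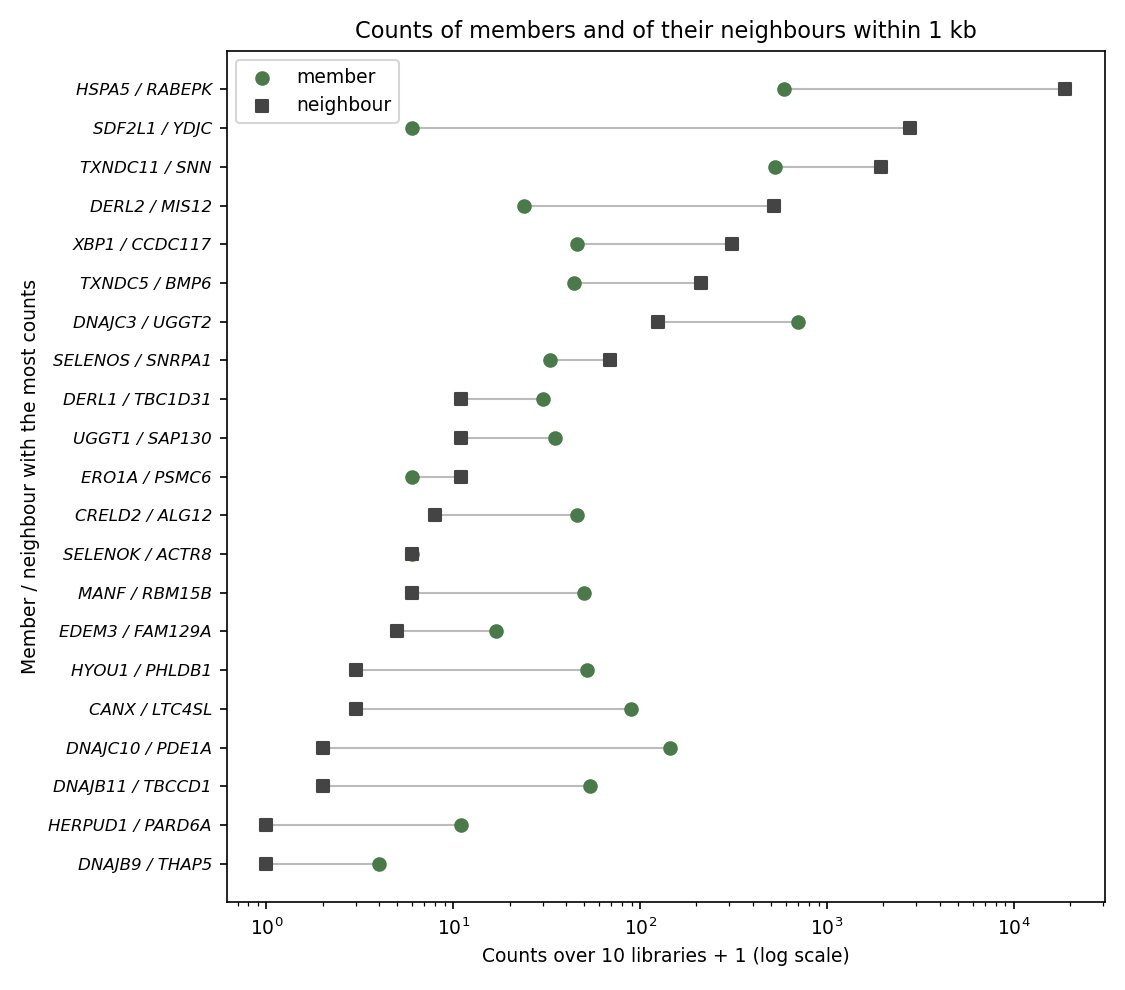
Counts over the 10 libraries, plus 1, on a log scale, for members with a counted neighbour (circles) and the neighbour with the most counts (squares). CALR is not drawn. Neighbours exceed the member most for HSPA5 and SDF2L1, whereas DNAJC3 and DNAJC10 exceed theirs.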

How the data were processed

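RNA from whole magnum was extracted with TRIzol and libraries were made with a directional kit, per the labels' protocols. Trimmomatic, HISAT2, Cufflinks, DESeq2 and the build GRCg7b stand in the submitters' processing notes, without versions. No source used here names the counter, its strand setting or the annotation release. For 10 libraries, the deposited file holds the authors' raw counts by Ensembl gene. The authors' deposited table of their own comparison gives log2 fold changes with standard errors, p-values and adjusted p-values, a score (the Wald statistic, not used) and a mean normalised signal per gene (not printed), per the file headers. It holds 203 genes, all with the sign of 35 over 50 weeks in the counts, and 2 of them are members.

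Count columns were matched to samples by the column name in each description. Replicate pairs of 1 age differed by more than sampling noise (chi-square of at least 2.73 per degree of freedom). The sample titles give each library its own breeder number, so each was taken as 1 hen and 1 replicate. The test of age was that of edgeR 4.0.16, run in R 4.3.3 (genes kept by filterByExpr with a minimum count of 10, TMM, robust quasi-likelihood, two-sided, Benjamini-Hochberg over all tested genes), with age as the one term. CPM values are scaled by library total and TMM factor. Correlations with the egg white sum used CPM, and those between single genes used log2 CPM with a prior count of 2. Alternatives used DESeq2 1.42.0 and limma 3.58.1 (voom with sample weights), other scalings and filters, a replicate block and left-out libraries. The edgeR step was tested on simulated data. Sums, ranges and correlations were computed with Python 3.11.15, numpy 2.4.6, pandas 2.3.3 and scipy 1.17.1, and drawn with matplotlib 3.10.9. Of the gene IDs, 12826 matched a RefSeq gene of GRCg7b by NCBI gene ID or symbol. ATF6 could not be placed.

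The members and all gene lists were chosen with earlier results of these data known, so lists are described by counts and medians without a test. Members past the filter are given hen by hen, those with 20 or more counts by their counts, and the other 15 as a group or by total. ACTB and COL6A2 fall outside this rule and were chosen with their values in view. No sequence table was used here. The neighbours of CALR are not reported here.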

Additional observations from a re-analysis of the deposited data

Results flagged for a closer look

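Among 34 sets of 5 hens screened for a hen far from the others of its age, 2 stood out, and chance alone flags about 1 in 20. TXNDC11 was high in hen 3 at 35 weeks, with 319 CPM against a next value of 240.5 CPM. The number of egg white counts per ER gene count was low in hen 2 at 35 weeks, at 13.9 against a next value of 15.5. That hen had the highest ER sum of all.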

How the results depend on the processing

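The number of members past an adjusted p of 0.05, 0 in edgeR's main test, was 1 (HSP90B1) without a filter on low counts, with a filter that asks for 1 CPM in 5 libraries, in DESeq2, in limma with sample weights and without hen 4 at 50 weeks. At an unadjusted p under 0.05 in the main test it was 3. Leaving out 1 library gave 0 to 1. No other member passed in any fit. HSP90B1 had log2 fold changes of −1.26, −1.26, −1.29, −1.46 and −1.54 in these 5 fits. The sign turned for DNAJC10, which ranged from −0.43 to 0.047 on leaving out 1 library (the highest without hen 2 at 35 weeks), and for ATF4, at 0.040 without the 3 libraries that stood apart. The difference in summed CPM, −660, ranged from −763 to −529 on leaving out 1 library, and was −401 without PDIA6. As a mean of log2 CPM over the 17 members with a mean count of 5 or more, it was −0.44 on the log2 scale. The correlation of the sums ranged from 0.846 to 0.919 without 1 library, and from 0.686 to 0.843 with age means subtracted. Without PDIA6 it was 0.820, and 0.576 with age means subtracted. With the ER genes as that mean of log2 CPM it was 0.882, and 0.606 with age means subtracted. Adding counted neighbours moved it to 0.475, and to −0.292 with age means subtracted. The cause was not tested, though RABEPK holds most of the added counts and by itself had an r of 0.420, and −0.351 with age means subtracted. With the replicate block no member passed either, and HSP90B1 was at −1.32 (adjusted p = 0.0920). The replicate numbers are only labels: same-numbered hens correlated between −0.115 and 0.0979. Low counts are a limit, since 31 of the 41 members were too sparse for the test. Why they were sparse was not tested.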
